A study of Mus musculus with 6 samples.

Results

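The simple epithelial keratins and luminal surface genes were followed as a set of 9 genes: Krt7, Krt8, Krt18 and Krt19, and the surface genes Epcam, Cd24a, Muc1, Prom1 and Cdh1. They were chosen by name, as the gene probes whose transcript accession belongs to these symbols. All 9 had a probe on the array and all 9 passed the filter on dim probes, out of 22504 genes and unnamed transcripts tested. None of the 9 had a log2 ratio of RANK-/- over RANK+/+ of the same sign in all 3 pairs of RNAs. Over all genes, 9.95% were above 0 and 9.65% below 0 in all 3 pairs. With some other normalizations the count became 1 of 9, Krt19. None of the 9 passed limma or the rank product test, which called 0 and 7 of all genes. The pairs differed in direction: the median of the 9 log2 ratios was 0.27 in pair 1, -0.55 in pair 2 and 0.30 in pair 3. The medians of pairs 1 and 3 depended on the normalization: that of pair 1 was -0.05 in the series table of the authors, and that of pair 3 was -0.38 with median centring in place of loess. The widest difference was that of Krt19, with 15.5-fold less signal in the RNA labeled RANK-/- of pair 2, 2.32-fold less in that of pair 1 and about equal signal in pair 3. All directions rest on the labels, against which the targeted gene Tnfrsf11a was higher in the RNA labeled RANK-/- in each pair.

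RNA came from live CD45- cells sorted from enzymatically dissociated mammary tumors. CD45 is a surface protein of leukocytes, so the sort takes leukocytes away and leaves tumor epithelium together with host fibroblasts, endothelium and other stroma. The tumors were orthotopic transplants of late carcinoma cells from MMTV-PyMT mice, in which the promoter of mouse mammary tumor virus drives the polyoma middle T oncogene, into syngeneic C57BL/6 hosts (young females, per the methods of the study). The transplanted cells were RANK+/+ or RANK-/-, so both groups carried the oncogene and differed in the germline status of RANK, a receptor of the TNF family whose gene is Tnfrsf11a, while host cells carried RANK. Each of 6 two-color arrays received 1 RNA of each genotype. The arrays formed 3 pairs of RNAs, each hybridized to technical arrays A and B. Per the labels, Cy5 marked the RANK-/- RNA of pair 1 and Cy3 the RANK-/- RNAs of pairs 2 and 3, with no dye swap between arrays A and B, whereas the methods of the study describe a swap for each sample. Whether the RNAs of 1 genotype were taken from separate tumors is not stated in the labels, so the spread given here is the spread between these RNAs, and the number of pairs limits the precision. The comparison asks how RNA of tumor cells without RANK differs from that of tumor cells with RANK.

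Keratins are intermediate filament proteins that form obligate pairs of a type I and a type II chain. Krt8 (type II) with Krt18 (type I) is the pair of simple epithelia and of the luminal layer of the mammary duct, Krt7 is a further type II chain of ducts and glands, and Krt19 is a small type I chain found in luminal and other simple or transitional epithelia. Epcam is a homophilic adhesion protein of epithelia, Cd24a a small glycosylated surface protein that is abundant on luminal mammary cells, Muc1 the mucin of the apical membrane, Prom1 (CD133) a protein of apical membrane protrusions, and Cdh1 is E-cadherin, the adhesion protein of adherens junctions.

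Promoters of 6 of the 9 genes were matched in a RefSeq table (GRCm38.p6; 250 bases before to 50 after the annotated start). Those of Krt8 and Krt18 are shown because the proteins are partners and the genes neighbor each other on chromosome 15, with 2 genes between them, of which 0 are protein-coding. That of Muc1 is shown because its pair ratios were close to those of Krt18. They lie at chr15:102004293-102004592 (minus strand), chr15:102027966-102028265 (plus strand) and chr3:89228806-89229105 (plus strand). Capitals mark matches, on either strand, to any of 3 motifs. One is the TATA box, spelled TATAAA. Another is the GC box, spelled GGGCGG. The last is an E-box bound by Snail and Zeb factors, spelled CAGGTG.
Krt8: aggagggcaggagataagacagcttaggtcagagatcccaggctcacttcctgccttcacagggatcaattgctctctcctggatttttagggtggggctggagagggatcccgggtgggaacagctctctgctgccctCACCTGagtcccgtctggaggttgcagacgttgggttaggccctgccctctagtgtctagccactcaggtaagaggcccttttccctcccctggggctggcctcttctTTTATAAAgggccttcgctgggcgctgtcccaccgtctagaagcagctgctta
Krt18: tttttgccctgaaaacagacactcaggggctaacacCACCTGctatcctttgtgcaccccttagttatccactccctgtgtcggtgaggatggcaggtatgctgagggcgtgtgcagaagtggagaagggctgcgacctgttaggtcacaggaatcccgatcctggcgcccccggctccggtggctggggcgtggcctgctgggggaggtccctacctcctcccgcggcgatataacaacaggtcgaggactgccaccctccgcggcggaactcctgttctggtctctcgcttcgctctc
Muc1: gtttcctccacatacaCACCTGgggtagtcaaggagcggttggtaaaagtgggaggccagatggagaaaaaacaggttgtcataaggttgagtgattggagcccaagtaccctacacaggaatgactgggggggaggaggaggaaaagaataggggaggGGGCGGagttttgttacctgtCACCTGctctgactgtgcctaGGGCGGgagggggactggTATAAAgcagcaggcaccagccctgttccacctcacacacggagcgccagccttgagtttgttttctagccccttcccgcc
The E-box letters were present in all 3, there as CACCTG on the strand shown. They were in 6 of the 7 promoters of the 6 matched genes, beside 20.2% of all 32851 promoters in the table. Prom1 has 2 of these promoters, and 1 of them lacks the letters. The TATA box letters were in the promoters of Krt8 (2 overlapping matches, 1 on each strand) and Muc1, 2 of the 7, beside 13.6% of all promoters. The GC box letters were in that of Muc1 (2 matches) and not in those of Krt8 and Krt18. They were in 4 of the 7 promoters, beside 35.7% of all promoters.  These matches describe letters in a window and are not sites of binding.

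The label check came first. The probe of Tnfrsf11a gave log2 ratios of 2.03, 1.15 and 1.76, more signal in the RNA labeled RANK-/- each time (mean 1.65 ± 0.45, SD, n = 3). This goes against the label of a null genotype, although the files do not say whether the probe lies in the deleted part of the gene. Every direction below therefore rests on the labels, as "the RNA labeled RANK-/-" over "the RNA labeled RANK+/+". Over the log2 ratios of the probes, the 2 technical arrays of a pair had correlations of 0.973 to 0.983 (a description across genes, which are not independent replicates). Between 51.9% and 58.8% of gene probes were well above background in a channel. All 10 probes of the 9 genes were well above background in both channels on 6 of 6 arrays, so the CD45- cells held RNA of simple epithelium in every sample.

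Over all genes tested, limma called 0 at an adjusted p under 0.05 (0%). At an unadjusted p under 0.05 (limma) there were 647, fewer than the 1125 expected if no gene differed. The rank product called 4 higher (0.0178%) and 3 lower (0.0133%) in the RNA labeled RANK-/-. None of the 9 genes was among them, and each had an adjusted p of 1.00 (limma). A log2 ratio above 0 in all 3 pairs was found in 9.95% of all genes and one below 0 in all 3 pairs in 9.65%, beside 0 of the 9 in either direction. The count of 0 of 9 did not hold under every normalization: it became 1 of 9, Krt19 with lower values in every pair, with the processed signals of the scanner software, with median centring in place of loess, and with the series table of the authors. With 3 pairs, an exact two-sided sign-flip test of a single gene cannot go below 0.25.

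The type II keratins moved differently from each other. Krt7 (probe A_52_P410685, NM_033073) had log2 ratios of -0.89, 0.56 and 0.29 in pairs 1, 2 and 3. Its RNA labeled RANK-/- was dimmer in pair 1 and brighter in the other two, and the mean was -0.01 ± 0.77 (SD, n = 3; 95% interval -1.93 to 1.91). In normalized log2 signal the 3 RANK-/- RNAs were at 11.70, 12.40 and 12.29 and the 3 RANK+/+ RNAs at 12.59, 11.83 and 12.01, so the groups overlapped.

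Krt8 (A_55_P2128501, NM_031170) was at -0.41, -0.55 and 2.08. The RNA labeled RANK-/- had 4.22-fold more signal in pair 3 and slightly less in the other pairs. Its normalized log2 signals were 14.74, 14.00 and 16.02 in RANK-/- and 15.14, 14.55 and 13.95 in RANK+/+, with 1 RANK-/- RNA above all the others. The mean was 0.37 ± 1.48 (n = 3). In pair 1 the spot on array B was marked as an outlier by the scanner software, so the pair 1 value is that of array A alone.

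Krt18 (A_51_P324814, NM_010664), the partner of Krt8, was at 0.45, -1.34 and 1.65, that is 1.37-fold more, 2.53-fold less and 3.15-fold more signal in the RNA labeled RANK-/-. It differed in sign from Krt8 in pair 1 and shared its sign in pairs 2 and 3. In pair 1 the series table of the authors put Krt18 at -0.05. Normalized log2 signals of the RANK-/- RNAs were 17.43, 15.98 and 18.09, and those of the RANK+/+ RNAs were 16.98, 17.32 and 16.43. The RANK-/- RNAs held both the brightest and the dimmest value, with the RANK+/+ RNAs between them, and the mean ratio was 0.26 ± 1.51 (n = 3). Krt8 minus Krt18 was -0.86, 0.79 and 0.42 in the 3 pairs, so the partners were not kept in a fixed ratio on these arrays.

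Krt19 (A_51_P356642, NM_008471) was at -1.22, -3.95 and 0.03. Signal was 2.32-fold lower in the RNA labeled RANK-/- of pair 1, 15.5-fold lower in that of pair 2 and 1.02-fold higher in that of pair 3. In pair 2, 1 of the other genes with 3 ratios had a lower value than Krt19, and in pair 3 its value was at percentile 53.6 of all genes. The RANK+/+ RNAs were close together, at normalized log2 signals of 14.47, 14.16 and 13.70, while the RANK-/- RNAs were at 13.26, 10.20 and 13.74. The low value of the RANK-/- RNA of pair 2 was seen on both arrays (log2 ratios -3.94 and -3.96). The mean was -1.71 ± 2.04 (n = 3; 95% interval -6.78 to 3.35), with 12 genes lower by their mean. It did not pass limma (adjusted p 1.00, unadjusted 0.0978) or the rank product (proportion of false positives, pfp, 0.115). Leaving out pair 2 moved the mean to -0.59, and leaving out pair 1 or pair 3 to -1.96 or -2.59.

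**Figure D1:**
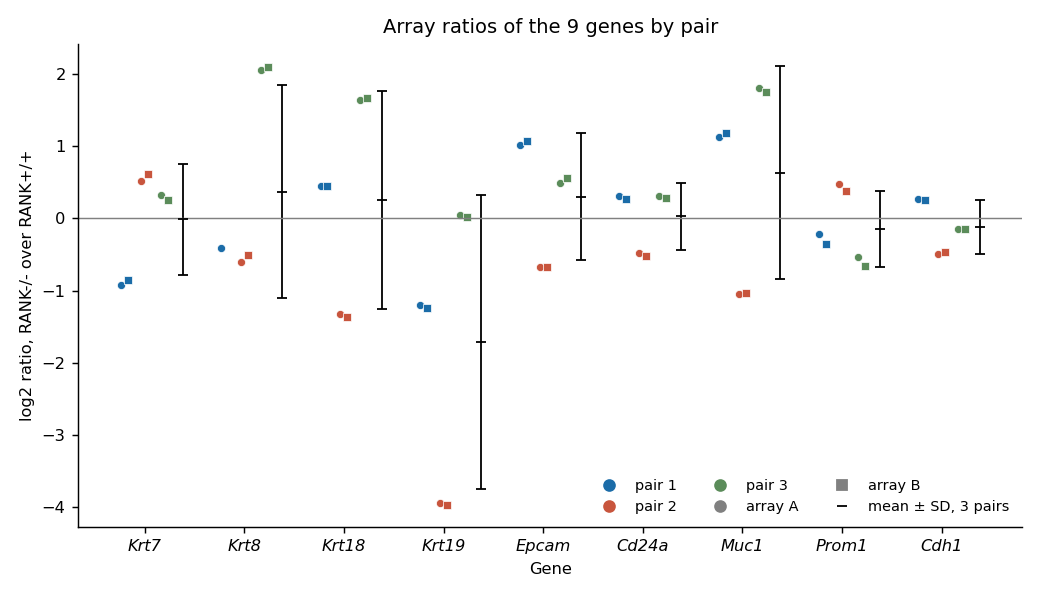
Log2 ratio of RANK-/- over RANK+/+ (vertical axis) for each of the 9 genes (horizontal axis) on each array; colors give the pair, circles array A and squares array B, and black bars the mean ± SD over 3 pairs. Arrays A and B lie almost on top of each other while pairs lie on both sides of 0, and Krt19 in pair 2 sits near -3.95.

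Among the surface genes, Epcam (A_52_P447944, NM_008532) was at 1.04, -0.67 and 0.52. The RNA labeled RANK-/- was 2.06-fold brighter in pair 1, 1.59-fold dimmer in pair 2 and 1.44-fold brighter in pair 3. Here the RANK+/+ RNAs were the more spread group, with normalized log2 signals of 12.34, 13.75 and 13.36 against 13.39, 13.08 and 13.88 in RANK-/-. The mean ratio was 0.30 ± 0.88 (n = 3).

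Cd24a (A_52_P244193, NM_009846) had small differences in every pair, at 0.29, -0.50 and 0.30, and a mean of 0.03 ± 0.46 (n = 3). Its 95% interval of -1.11 to 1.17 leaves room for a difference of about 2-fold either way. Normalized log2 signals were 14.10, 13.62 and 14.33 in RANK-/- and 13.81, 14.12 and 14.04 in RANK+/+. The RANK+/+ values lay inside the range of the RANK-/- values.

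Muc1 (A_51_P467346, NM_013605) was at 1.16, -1.03 and 1.78, or 2.23-fold more, 2.05-fold less and 3.43-fold more signal in the RNA labeled RANK-/-. Its mean was 0.63 ± 1.48 (n = 3; adjusted p 1.00, limma), the highest of the 9 genes with all pairs and both arrays. Without pair 3 it was 0.06, below Epcam (0.19), and Krt8 was above it without pair 1 (0.76 and 0.37). Krt8 was also above Muc1 with array B only (0.80 and 0.64), where the mean of Krt8 rests on pairs 2 and 3. For Muc1, the RANK+/+ RNAs were near each other, at normalized log2 signals of 9.20, 9.38 and 8.99. The RANK-/- RNAs were at 10.36, 8.34 and 10.77. As for Krt18, 2 RANK-/- RNAs lay above and 1 below all RANK+/+ RNAs.

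Prom1 had 2 probes. A_55_P2059931 (NM_001163577), the brighter one, was at -0.29, 0.43 and -0.59 (mean -0.15 ± 0.52, n = 3) and A_52_P402786 (NM_008935) at -0.31, 0.56 and -0.43 (mean -0.06 ± 0.54). Both probes had the same sign in each pair, lower in the RNA labeled RANK-/- in pairs 1 and 3 and higher in pair 2. On the brighter probe, normalized log2 signals were 11.25, 12.10 and 11.82 in RANK-/- and 11.54, 11.67 and 12.42 in RANK+/+.

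Cdh1 (A_51_P137336, NM_009864) was printed as 10 spots on each array (9 used on array B of pair 1), with a spot SD of 0.05 to 0.08 in log2 ratio. Its pair ratios were 0.27, -0.47 and -0.15 (mean -0.12 ± 0.37, n = 3; 95% interval -1.04 to 0.80). Averaged over arrays A and B, the 3 RANK+/+ RNAs were nearly identical, at normalized log2 signals of 13.07, 13.05 and 13.06 (SD 0.00715). That SD is smaller than the difference between arrays of 1 RNA, with the RANK+/+ RNA of pair 1 at 13.03 on array A and 13.11 on array B. The RANK-/- RNAs were at 13.33, 12.58 and 12.92. The SD over pairs was the smallest of the 9 genes.

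**Figure D2:**
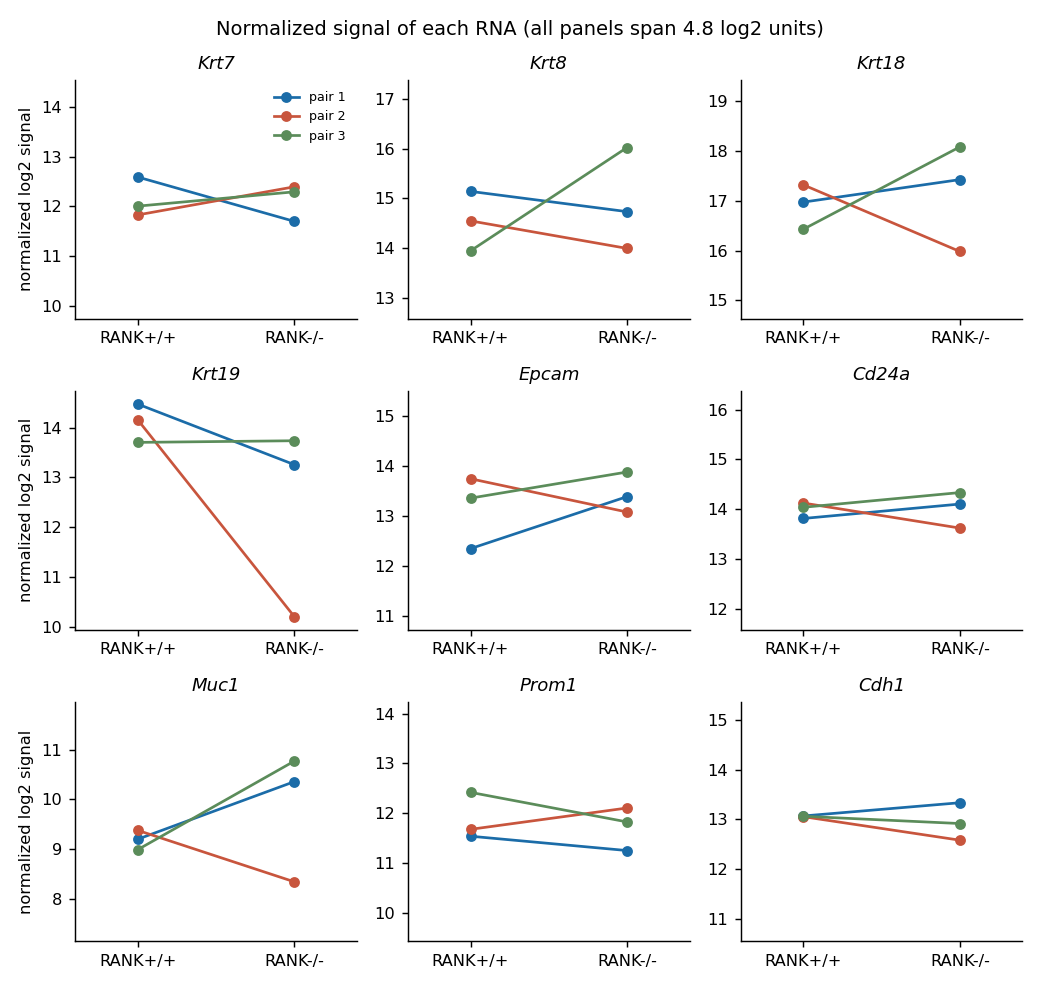
Normalized log2 signal (vertical axis) of each RNA by genotype (horizontal axis), 1 panel per gene, with a line joining the 2 RNAs of a pair; every panel spans the same range. The RANK-/- points of Krt18, Krt19 and Muc1 spread more widely than the RANK+/+ points, and the groups overlap in every panel.

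The RANK-/- RNAs had the larger SD for 6 of the 9 genes, beside 49.3% of all genes with 3 ratios, so neither genotype was the wider one over the whole array. By the difference of the SDs the gap was widest for Krt19 (SD 1.92 in RANK-/- and 0.39 in RANK+/+, n = 3 each), Muc1 (1.30 and 0.19) and Krt18 (1.07 and 0.45). By their ratio it was widest for Cdh1 (0.38 and 0.00715), where the RANK+/+ SD is smaller than the difference between arrays of 1 RNA. The gap ran the other way for Epcam (0.41 and 0.72), Krt7 (0.37 and 0.40) and Prom1 (0.44 and 0.47). Separate channel values rest on the average signal of a 2-color spot, and the difference in spread was not tested.

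The technical error was small beside these differences. Between arrays A and B of a pair the SD of the log2 ratio was 0.01 for Cdh1, 0.02 for Krt18 and Krt19, and at most 0.09 (Prom1). The SD between pairs was 6.02 times that value for Prom1 and 97.7 times for Krt19, with the other 7 genes between. Array A and array B hold the same RNAs, so this compares hybridization error with everything that differed between RNAs, including the dye arrangement.

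**Figure D3:**
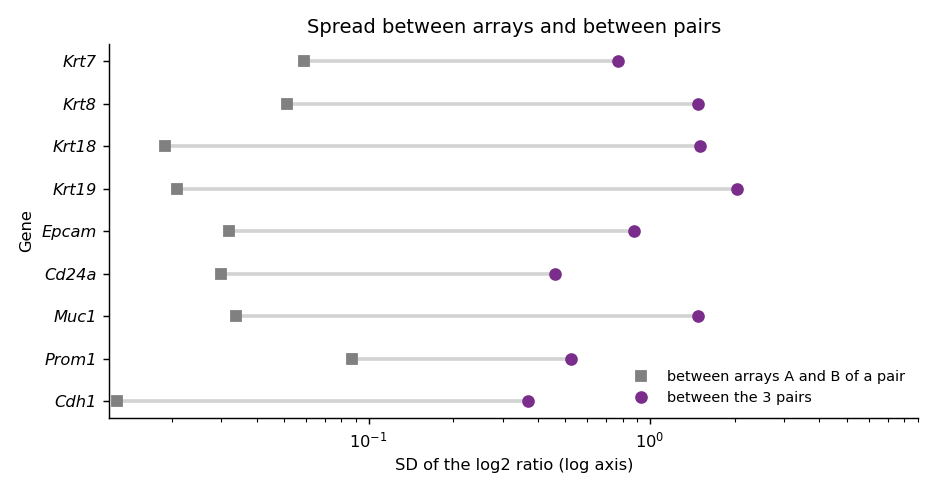
SD of the log2 ratio (horizontal axis, log scale) between arrays A and B of a pair (squares) and between the 3 pairs (circles) for each gene. Every circle lies to the right of its square, by 6.02 times for Prom1 up to 97.7 times for Krt19; the square of Krt8 rests on pairs 2 and 3.

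By pair, 5 of the 9 genes were higher and 4 lower in the RNA labeled RANK-/- in pair 1, 2 were higher and 7 lower in pair 2, and 7 were higher and 2 lower in pair 3. With median centring in place of loess, which leaves intensity-dependent dye bias in the ratios, pair 3 had 3 of 9 higher and a median of -0.38, as Krt7, Krt19, Epcam and Cd24a turned negative there. A difference of at least 2-fold was reached by Epcam, Muc1 and Krt19 in pair 1 (3 of 9, beside 6.5% of all genes), by Krt18, Krt19 and Muc1 in pair 2 (3 of 9, beside 4.82%) and by Krt8, Krt18 and Muc1 in pair 3 (3 of 9, beside 7.92%). Muc1 passed 2-fold in every pair, upward in pairs 1 and 3 and downward in pair 2. The medians over all genes, which loess sets near 0, were 0.02, -0.01 and 0.00.

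A pattern of higher values in pairs 1 and 3 and a lower value in pair 2, chosen after the values were seen, was shared by Krt18, Epcam, Cd24a and Muc1 (4 of 9), beside 18.8% of all genes. With median centring Epcam and Cd24a lost it, as did Krt18 in the series table of the authors, and Muc1 had it in every normalization run. Krt8 and Krt19 were instead lower in pairs 1 and 2 and higher in pair 3, Prom1 was lower in pairs 1 and 3, Krt7 was lower in pair 1 alone and Cdh1 higher in pair 1 alone. Pair 1 thus stood opposite to both other pairs in 2 of 9 genes, beside 28.8% of all genes. By the distance between their 3 log2 ratios, the closest of the 9 were Cd24a and Cdh1 (0.44), followed by Krt18 and Muc1 (0.78). Of all other genes, 1907 were closer to Cd24a than Cdh1 was, and 76 were closer to Krt18 than Muc1 was. Krt8 and Krt18 were 1.24 apart, with 484 genes closer to Krt18 than Krt8 was. The genes outside the set nearest to its median profile were Chmp3 (a subunit of the ESCRT-III membrane complex), Agpat1 (an acyltransferase of phospholipid synthesis), Mcee (methylmalonyl-CoA epimerase), Nipsnap3b and Bach1 (a heme-regulated transcriptional repressor), at distances of 0.06 to 0.09 among 14664 candidates and over 3 pairs.

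Krt19 had the lowest ratio of the 9 genes in pairs 1 and 2, but not in pair 3. Within each pair, the ratios of Krt7, Krt8, Krt18, Epcam, Cd24a and Muc1 were above that of Krt19 (6 of the 8 other genes), beside 45.6% of all genes. Prom1 and Cdh1 were above it in pairs 1 and 2 and below it in pair 3. Krt7 exceeded Krt19 by 0.33, 4.52 and 0.25 in pairs 1, 2 and 3. The other type I keratin, Krt18, exceeded Krt19 by 1.67, 2.61 and 1.62 (mean 1.97 ± 0.56, SD, n = 3). Muc1 exceeded it by 2.37, 2.92 and 1.75 (mean 2.35 ± 0.59). For Krt18 and Muc1 the difference from Krt19 thus varied less between pairs than either gene's own ratio did. Krt19 was picked for this comparison after its values were seen, so no test is given.

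**Figure D4:**
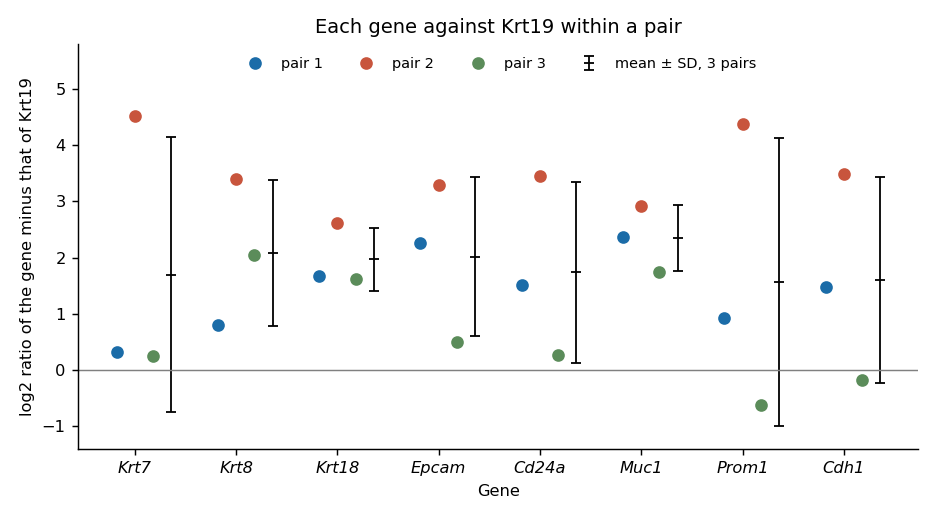
Log2 ratio of each gene minus that of Krt19 within a pair (vertical axis) for the 8 other genes (horizontal axis); colors give the pair and black bars the mean ± SD over 3 pairs. All points lie above 0 except those of Prom1 and Cdh1 in pair 3, and the points of Krt18 and Muc1 lie closest together.

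Other epithelial genes were followed as a list of 23 surface and regulator genes, 22 of them tested. The medians by pair were 0.20, -0.44 and 0.49, beside 0.27, -0.55 and 0.30 for the 9 genes. The pattern of higher, lower and higher values that Krt18 and Muc1 had was found in 10 of 22, beside 18.8% of all genes. It was chosen after the values of the 9 genes were seen. In other lists it ran from 0 of 7 proliferation genes to 4 of 8 luminal progenitor and alveolar genes, with 3 of 10 basal myoepithelial genes. Among the 22 genes, 2 were higher and 4 lower in all pairs (9.95% and 9.65% of all genes), and none passed either test. The membrane mucin Muc20 was the highest, at 1.29, -1.12 and 1.89 (mean 0.69 ± 1.59), with the signs of Muc1 in each pair.

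The list of cadherin partners, which also holds a second cadherin, had medians of -0.24, 0.02 and 0.01. In it 1 gene of 8 was above and 1 below 0 throughout and none was called. The lower one was Cdh3 (P-cadherin, of the basal layer), at -0.80, -0.34 and -1.09 (mean -0.74 ± 0.38, n = 3). The adhesion protein Nectin2 had the highest mean, 0.25 ± 0.64. Of the list of E-cadherin repressors and mesenchymal genes, 2 of 10 were above 0 and 1 below 0 in each pair, and none was called. Zeb2, a repressor of Cdh1 transcription, had the highest mean, with 1.00, 0.67 and 1.07 (0.91 ± 0.21; adjusted p 1.00, limma). Snai2 had the lowest, with -0.36, -0.48 and -0.58 (-0.47 ± 0.11). Cdh1 itself was at 0.27, -0.47 and -0.15 in the same pairs. Vim, the intermediate filament of mesenchymal cells, was at 0.68, 1.45 and -0.17.

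The keratins of the basal layer differed in sign between pairs as those of the luminal layer did. Krt5 was at -1.41, -2.13 and 0.33 and its partner Krt14 at -1.81, 0.12 and -0.44. Krt17 had the lowest mean of the basal myoepithelial list, -1.23 ± 1.14 (n = 3), and Oxtr, the oxytocin receptor, the highest, 0.89 ± 0.89. In that list the medians by pair were 0.17, -0.06 and 0.03, and 1 gene of 10 was above 0 throughout and 0 were below. Among hormone-sensing luminal genes (2 of 10 higher, 1 lower in all pairs; medians 0.05, -0.98 and 0.76), Foxa1, a transcription factor of estrogen receptor-positive cells, was the lowest at -0.97, -2.10 and -0.66, and Ly6a the highest at 0.74 ± 1.15. Among luminal progenitor and alveolar genes (medians 0.69, -0.10 and 1.25; 1 of 8 higher, 0 lower in all pairs), the milk protein gene Wap had the highest mean, 2.76 ± 1.78, and was called by the rank product (pfp 0.0130). The casein gene Csn2 had the lowest, -0.94 ± 2.55. Proliferation genes had medians of -0.77, 0.51 and -1.14, opposite in sign to the medians of the 9 genes with loess, and 0 of 7 had the same sign in all pairs. The proliferation medians were not computed with the other normalizations. Their means ran from -0.63 (Cdk1) to -0.25 (Top2a).

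Bulk RNA does not tell fewer epithelial cells from less RNA per cell, so markers of other cells are given beside the ratios. Fibroblast genes had median ratios of 0.13, 0.57 and 1.88, with 3 of 10 above 0 in each pair and 0 below. Their summed normalized signal ran from 147902 to 241292 in RANK-/- and from 55415 to 150862 in RANK+/+, a ratio of 1.14, 1.66 and 4.35 in the 3 pairs. Col1a1 was at 0.68, 0.30 and 1.94, Col1a2 was the highest of the list (1.28 ± 0.96) and Postn the lowest (0.10 ± 0.80). Such sums are carried by the brightest probes of a list. For basal myoepithelial genes the ratio of sums was 0.577, 0.825 and 0.904 in the 3 pairs, lower in RANK-/- each time. Their median log2 ratios were 0.17, -0.06 and 0.03. For the 9 genes the ratio of sums was 1.15, 0.472 and 2.52. Endothelial genes had medians of -0.00, -0.01 and 0.55 (1 of 7 higher, 0 lower in all pairs), with sums of 3354 to 3930 in RANK-/- and 2687 to 3555 in RANK+/+, Pecam1 at 0.02 ± 0.27, Cdh5 the lowest (0.00 ± 0.88) and Cldn5 the highest (0.55 ± 0.36). Leukocyte genes had sums of 7779 to 10460 in RANK-/- and 7380 to 9647 in RANK+/+ (ratios 1.08, 0.906 and 1.08) and median log2 ratios of -0.45, 0.15 and 0.20, which differ in sign from the ratio of sums in pairs 1 and 2, with 1 of 8 tested genes higher and 0 lower in all pairs. Ptprc, which encodes CD45, was at -0.93, 0.10 and 0.14, the lowest mean of that list (-0.23 ± 0.61), and its signal stood well above background on 5 arrays of 6 for RANK-/- and 4 of 6 for RANK+/+, while Itgam had the highest (0.10 ± 0.37) and Cd8a did not pass the filter. The part of these cells in the ratios of the 9 genes was not tested.

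**Figure D5:**
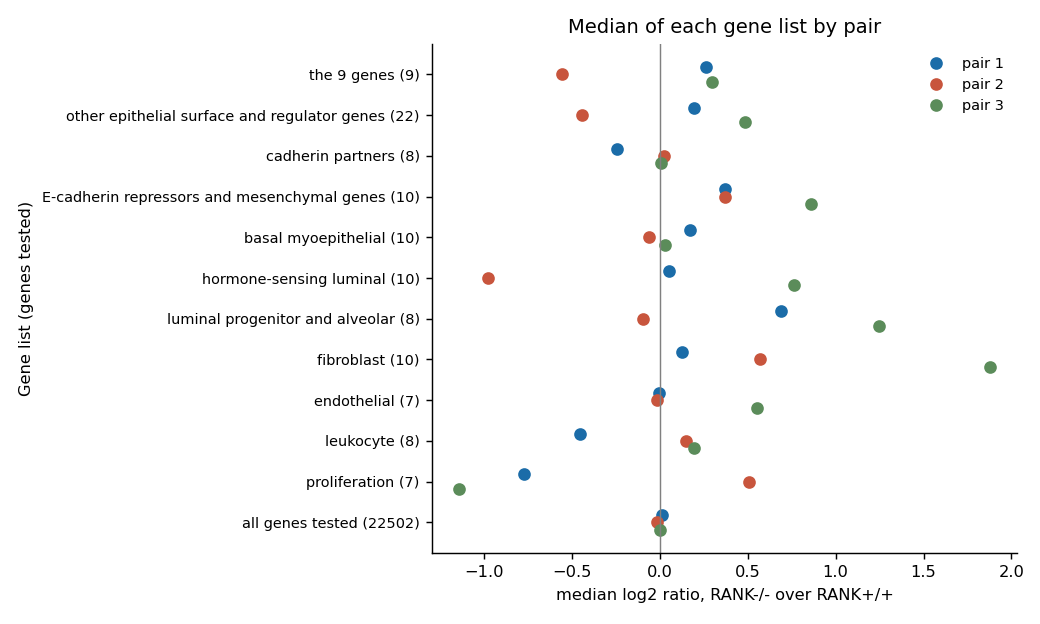
Median log2 ratio of RANK-/- over RANK+/+ (horizontal axis) of each gene list (vertical axis, with the number of genes tested), 1 point per pair. With loess, the 9 genes and other epithelial genes have pair 2 on the negative side and pairs 1 and 3 on the positive side. The basal myoepithelial, hormone-sensing luminal, and luminal progenitor and alveolar lists have the same signs, with some medians close to 0. Proliferation genes have the reverse, and the medians of all genes lie near 0.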

How the data were processed

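RNA of sorted CD45- tumor cells was hybridized to SurePrint G3 Mouse two-color arrays. The authors extracted spots with Agilent Feature Extraction 10.7.3.1 (per the labels); the deposited scanner tables hold median spot and background intensity in both channels, not normalized, and processed intensity values that are background-subtracted and dye-normalized. The deposited series table holds log2 ratios normalized by the authors, with the scale and direction not stated; against the scanner ratios (r = 0.950 to 0.962) it ran as RANK-/- over RANK+/+, with column medians of -0.0076 to 0.0073. Processed intensities and the series table served as alternatives only. The median spot signal was used, and mean spot signals were not run as an alternative.

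Signals were corrected with normexp (offset 50). Control spots (3671 per array) and outlier spots of gene probes (212 to 260 per array) were removed, and 0 spots were saturated. Ratios were normalized by intensity loess and Aquantile (limma 3.58.1, R 4.3.3). The study also names spatial loess, run here as an alternative. Spots of a probe, then arrays A and B, were averaged, so n = 3 pairs. A probe was kept if the scanner software called it well above background for 1 of the genotypes in 2 or more pairs, on array A and array B alike (30231 of 55681 kept), and the brightest stood for its gene. Symbols came from RefSeq accessions (28026 probes); of the genes tested, 14674 had a symbol, 7830 kept the name in the file and 22502 had all 3 ratios. Tests were limma with Benjamini-Hochberg adjustment over all genes tested and a rank product with analytic p (pfp under 0.05). Both were also run on simulated data, where recovery of changed genes was required of the rank product only. Intervals of 95% come from the SD of 3 pairs by the t distribution with no moderation. Alternatives changed the background correction, normalization, filter, probe rule, array, dye term, pair block and the pairs used.

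The genes and lists were chosen with earlier results of these data known. The text names the 9 genes with all their probes, Tnfrsf11a, 6 defining markers, the highest and lowest gene of each list (1 such gene is not reported here) and the 5 genes nearest to the median profile.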

Additional observations from a re-analysis of the deposited data

Results flagged for a closer look

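In 2 of the 9 genes, pair 1, in which the RNA labeled RANK-/- was in Cy5, lay on the opposite side of 0 from both pairs with that RNA in Cy3, as it did in 28.8% of all genes. Krt7 had log2 ratios of -0.89 (pair 1), 0.56 (pair 2) and 0.29 (pair 3), a difference of -1.32 between pair 1 and the mean of the others on the log2 scale. Cdh1 had 0.27, -0.47 and -0.15, a difference of 0.57. The difference between the dye arrangements was not tested, and with 1 pair in 1 arrangement the dye and the RNAs of pair 1 cannot be told apart. With a dye term in the fit, which weighs the 2 arrangements equally, the means became -0.23 for Krt7 and -0.02 for Cdh1.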

How the results depend on the processing

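The result that no gene passed limma held in every alternative run except 1: with the 6 arrays kept apart and the pair as a random block, 13 genes passed (none of the 9 genes), at an estimated correlation within pairs of 0.96. The smallest adjusted p of any of the 9 genes over all alternatives was 0.455. The rank product called 7 genes, 23 without the filter on dim probes, and 0 to 5 with 1 pair left out (2 without pair 1, 0 without pair 3). The count of the 9 genes with the same sign in all pairs was 0, and 1 (Krt19) with the processed signals, with median centring and with the series table of the authors; with only 2 pairs left it was 2 to 5. The arrays pair the RNAs by design. With no replicate block, the 2 channels were treated as 3 samples of each genotype. Limma then called 0 genes, with 827 at an unadjusted p under 0.05, beside 1125 expected if no gene differed. The median of the 9 genes was 0.03. Over all genes, RNAs of a pair deviated from their group means with correlations of -0.03, -0.22 and -0.04.

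Mean log2 ratios changed sign in 16 of 144 recomputed values. These included 2 each for Krt8, Krt18 and Epcam, whose means in the main run were 0.37, 0.26 and 0.30. With median centring Krt8 was at -0.0406, Krt18 at -0.270, Epcam at -0.0229 and Cd24a at -0.326. Cd24a was also at -0.0308 with the processed signals and at -0.0826 with the series table. Krt7 was at 0.0028 with the spatial loess and at 0.0054 with array B only. With 1 pair left out in turn, Krt7 ran from -0.302 to 0.426, Krt8 from -0.48 to 0.835, Krt18 from -0.443 to 1.05, Epcam from -0.072 to 0.785, Cd24a from -0.107 to 0.293, Prom1 from -0.441 to 0.0702 and Cdh1 from -0.309 to 0.0602. Krt19 and Muc1 kept the sign of their mean in all of these, but Muc1 ran from 0.0614 without pair 3 to 1.47 without pair 2. The cause of these changes was not tested. The probes of the 9 genes were well above background in both channels on all arrays. The number of pairs limits the precision, and some signs also depended on the normalization.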
